A study of Mus musculus with 2 samples.

Results

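This account concerns 10 genes of the inflammasome and the interleukin-1 (IL-1) family in the ventral prostate of mice that express miR-32. The members were chosen by gene symbol, with earlier results of the same arrays already known, so the values below describe them and support no choice of them. They are Nlrp3, Pycard, Casp1 and Casp4 of the inflammasome, the cytokines Il1a, Il1b, Il18 and Il33, the receptor antagonist Il1rn and the receptor Il1r1. The array carried 13 probes for them, out of 41174 different probes, and every member had at least 1. A detected probe was one whose signal the scanner software marked as well above background on both arrays in at least 1 of the RNA pools. By that rule 8 of the 13 probes and 7 of the 10 genes were detected, among 13899 detected genes in all, and Nlrp3, Il1a and Il1rn were not.

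The study set ARR2PB-miR32 transgenic mice against wild type mice at 6 months of age. All were of the FVB/N strain (spelled FBV/N in other labels), and ARR2PB is a probasin-derived promoter active in prostate epithelium. RNA from 6 wild type mice was combined into 1 pool and RNA from 6 transgenic mice into another, and both pools were hybridised together on 2 Agilent two-colour whole-genome arrays. The transgenic pool was labelled with Cy3 on array 1 and with Cy5 on array 2. The arrays are technical repeats of the same pair of pools, so each genotype has 1 replicate, no p-value is given, and the SD quoted with a mean is that of the 2 arrays and leaves out the spread between mice.

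An inflammasome is a cytosolic complex in which a sensor such as NLRP3 recruits the adaptor ASC (encoded by Pycard), which in turn activates caspase-1. Caspase-1 cleaves the precursors of IL-1 beta and IL-18 into secreted cytokines and cuts gasdermin D, whose fragments open pores in the cell membrane. Mouse caspase-11, the product of Casp4, senses intracellular lipopolysaccharide and cuts gasdermin D directly. IL-1 alpha and IL-1 beta signal through IL1R1 to NF-kB, IL-1RA (Il1rn) occupies that receptor without signalling, and IL-33 is a nuclear alarmin of epithelial and stromal cells with a receptor of its own.

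The sequence of the transgene's microRNA is shown because it defines the comparison, and the regions upstream of Casp4, Casp1 and Il1b as the caspases called lower and, as an example of a ligand, the one whose spots did not overlap between the pools. All are from RefSeq on GRCm38.p6, which is not the build of the array's annotation (mm9). In the microRNA the capitals mark the seed, bases 2 to 8. In the upstream windows, each of the 250 bases before a RefSeq start, capitals mark a match to a searched motif.
mmu-miR-32-5p, chr4:56895272-56895293, minus strand: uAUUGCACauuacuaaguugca
Casp4, chr9:5308599-5308848, plus strand: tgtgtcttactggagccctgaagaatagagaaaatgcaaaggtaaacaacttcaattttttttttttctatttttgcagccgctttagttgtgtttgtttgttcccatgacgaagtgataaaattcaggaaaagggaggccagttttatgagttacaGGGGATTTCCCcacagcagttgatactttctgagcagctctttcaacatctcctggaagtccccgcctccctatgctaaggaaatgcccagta
Casp1, chr9:5298267-5298516, plus strand: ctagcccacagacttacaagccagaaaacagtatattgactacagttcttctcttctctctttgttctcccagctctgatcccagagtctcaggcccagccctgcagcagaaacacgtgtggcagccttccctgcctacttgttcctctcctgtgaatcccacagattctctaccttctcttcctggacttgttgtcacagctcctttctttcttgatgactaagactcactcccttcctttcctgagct
Il1b, chr2:129371140-129371389, minus strand: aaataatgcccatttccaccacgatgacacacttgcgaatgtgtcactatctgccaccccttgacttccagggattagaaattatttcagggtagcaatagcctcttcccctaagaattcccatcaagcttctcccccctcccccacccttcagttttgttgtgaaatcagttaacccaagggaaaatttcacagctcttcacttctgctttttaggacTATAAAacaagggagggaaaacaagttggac

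Both strands were searched for the interferon-gamma element GAS (TTCNNNGAA), a pair of IRF half-sites (GAAANNGAA), the PU.1 core (GAGGAAG), the TATA box (TATAAA) and the kappaB consensus of NF-kB. The capitals upstream of Casp4 are the kappaB consensus, which matched in overlapping registers on both strands from position -93 to -83 relative to the start. Of 32851 RefSeq windows of this length, 3.9% held a kappaB match. The capitals upstream of Il1b are a TATA box that begins at position -31, a motif found in 12.4% of windows. The Casp1 window held none of these motifs, and no window of any member held GAS or the IRF pair (0 members for each), which 7.02% and 7.13% of all windows hold. Over all 16 windows of the 10 members, kappaB matched in 3 genes (Casp4, Il1r1 and Nlrp3), PU.1 in 3 (Il1a, Nlrp3 and Pycard) and the TATA box in 4 (Il1a, Il1b, Il18 and Il33). PU.1 matched in 10.6% of all windows. The shares count windows and the member counts are of genes, some with several windows, so they are not directly comparable. A match of letters describes the window and does not show that a factor binds there.

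Casp4 and Casp1 were the members called lower in the transgenic pool. Signals below are log2 values after background correction and dye normalization, and a ratio is transgenic over wild type. A call of lower or higher required a mean log2 ratio of 1 or more in size, with both arrays past 1.5-fold on the same side. By this rule 2 of the 7 detected members were called lower and 0 higher, where 3.53% of all detected genes were lower and 1.09% higher. The members were picked with this contrast in view, so nothing is read from that count.

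For Casp4, the lipopolysaccharide-sensing caspase, the wild type signal was 9.43 on array 1 and 10.28 on array 2, and the transgenic signal was 7.53 and 7.64. Both transgenic values lay below both wild type values, and all 4 were well above background. The log2 ratios were -1.90 and -2.64, with a mean of -2.27 ± 0.52 (SD of the arrays, n = 2), or 4.81-fold lower. Before any correction the scanner read the wild type spot at a median of 503 over a local background of 111 in Cy5 and 2162.5 over 31.0 in Cy3. The transgenic spot read 220.0 over 25.5 in Cy3 and 179 over 121 in Cy5.

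Casp1, the protease that matures IL-1 beta and IL-18, showed the same order. Its wild type signal was 8.57 and 8.79 on arrays 1 and 2, and its transgenic signal was 6.71 and 7.58. The groups again did not overlap, and all 4 signals were well above background. The log2 ratios were -1.85 and -1.22, with a mean of -1.54 ± 0.45 (SD of the arrays, n = 2), or 2.90-fold lower. Each of these caspases has a single probe, so no second probe checks either gene. Casp1, Casp4 and Casp12 stand next to each other on the chromosome in the RefSeq gene order. Casp12, named here for that position after its value was seen, stood at -1.08 and -0.88, with a mean of -0.98 ± 0.14 (SD of the arrays, n = 2), just short of the rule. It was called with Feature Extraction's signals (-2.35), with offset 16, with median centring (-1.07), on array 1 alone and at a 1.5-fold limit. Its transgenic signal was well above background on 1 array.

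Leukocyte markers, and fewer of the fibroblast markers, were also called lower in the transgenic pool. Of all detected genes 3.53% were lower and 1.09% higher, and these lists were chosen with earlier results known. Of the macrophage and dendritic cell markers, 10 of 16 detected were called lower and 0 higher, with a median of -1.32. Their summed linear signal was 16659.3 and 19301.3 in the wild type pool and 5558.2 and 5941.9 in the transgenic pool. Of the B and plasma cell markers 7 of 8 were lower (summed signal 22228.1 and 25304.5 against 2188.9 and 2474.2). Of the T and NK cell markers 4 of 6 were lower (1620.2 and 1807.3 against 647.0 and 887.5). Where a called leukocyte marker had another detected probe, that probe gave 0.19 for Mpeg1, -0.31 for Nkg7, -1.02 for Aif1 and -5.98 for Jchain. Of 9 neutrophil markers on the array 2 were detected and 1 was lower, with summed signals of 563.0 and 907.7 against 156.6 and 216.2, and Mpo, Elane, Camp and Cxcr2 were not detected. Of 8 fibroblast markers 2 were lower, Lum at -1.11 ± 0.09 and Col3a1 at -1.11 ± 0.05, and 6 were below 0 on both arrays, with a median of -0.70. The summed fibroblast signal was 14997.2 and 35096.2 in the wild type pool and 14368.8 and 8839.7 in the transgenic pool. Dcn, by far the brightest of these markers, weighed most in that sum. Of 10 epithelial markers 0 were called, 5 were above 0 on both arrays and 3, the keratins Krt5, Krt14 and Krt15, were below 0 on both. Their summed signals were 86548.5 and 75082.3 in the wild type pool and 81775.0 and 94592.5 in the transgenic pool. Krt18 and Krt8, the brightest of them, weighed most in these sums. The part of these cells in the member ratios was not tested, and in pooled tissue RNA fewer cells of a type and less RNA per cell cannot be told apart.

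**Figure D1:**
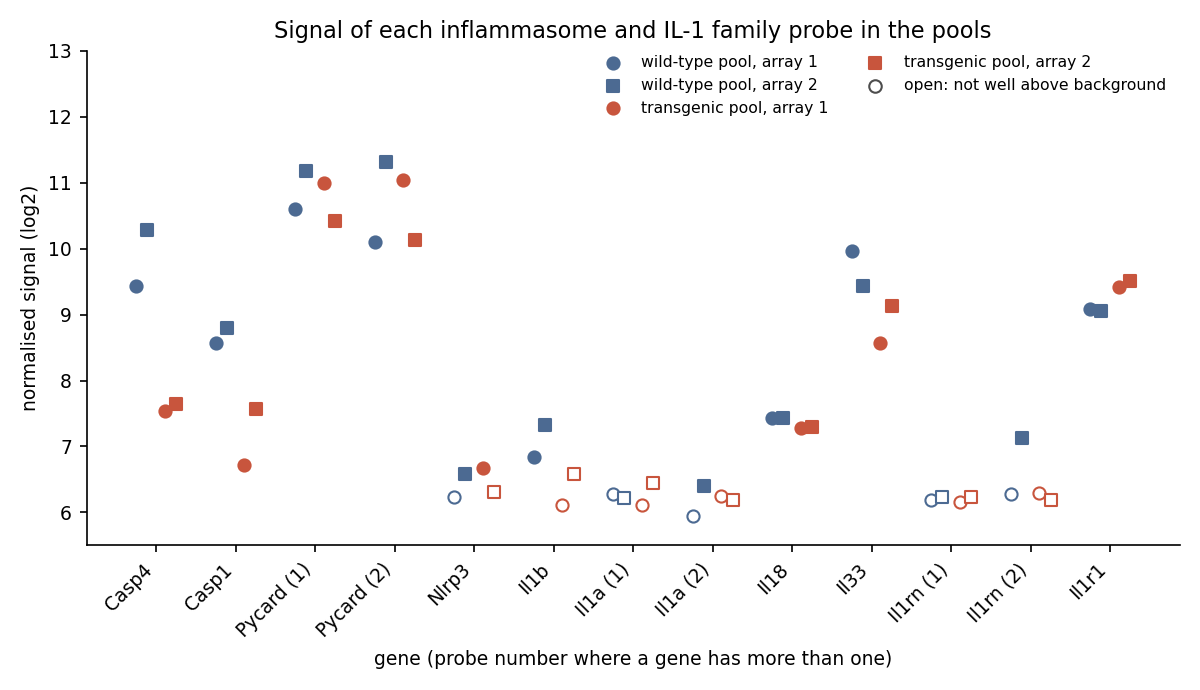
Normalised log2 signal (vertical axis) of each of the 13 probes in the wild-type (blue) and transgenic (red) pools on array 1 (circles) and array 2 (squares), with open symbols where a signal was not well above background. The red symbols of Casp4 and Casp1 lie below their blue ones, those of Pycard interleave with them, and the probes of Nlrp3, Il1a and Il1rn sit near the lower limit of detection.

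Pycard, the ASC adaptor that links sensor to caspase-1, did not share the difference of the caspases. Its brighter probe gave wild type signals of 10.61 and 11.18 and transgenic signals of 10.99 and 10.41, so the pools overlapped. The log2 ratio was 0.39 on array 1 and -0.76 on array 2, with a mean of -0.19 ± 0.81 (SD of the arrays, n = 2). A second probe gave 0.94 and -1.18, with a mean of -0.12 ± 1.504 (SD of the arrays, n = 2). On each array both probes were brighter in the pool that carried Cy3, whichever genotype that was. A gap between arrays as wide as the 1.15 of the brighter probe was found in 6.09% of detected genes, against a median gap of 0.34. Feature Extraction's own processed signals gave -0.0038 and -0.54 for that probe, a narrower gap.

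Nlrp3, the sensor, was at the limit of the array. Its wild type signal was 6.24 and 6.58 and its transgenic signal 6.68 and 6.30. It was well above background only in the pool labelled with Cy3 on each array, the dye with the lower local background, and in neither pool on both arrays. Its log2 ratios were 0.44 and -0.28, and no difference was detectable.

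**Figure D2:**
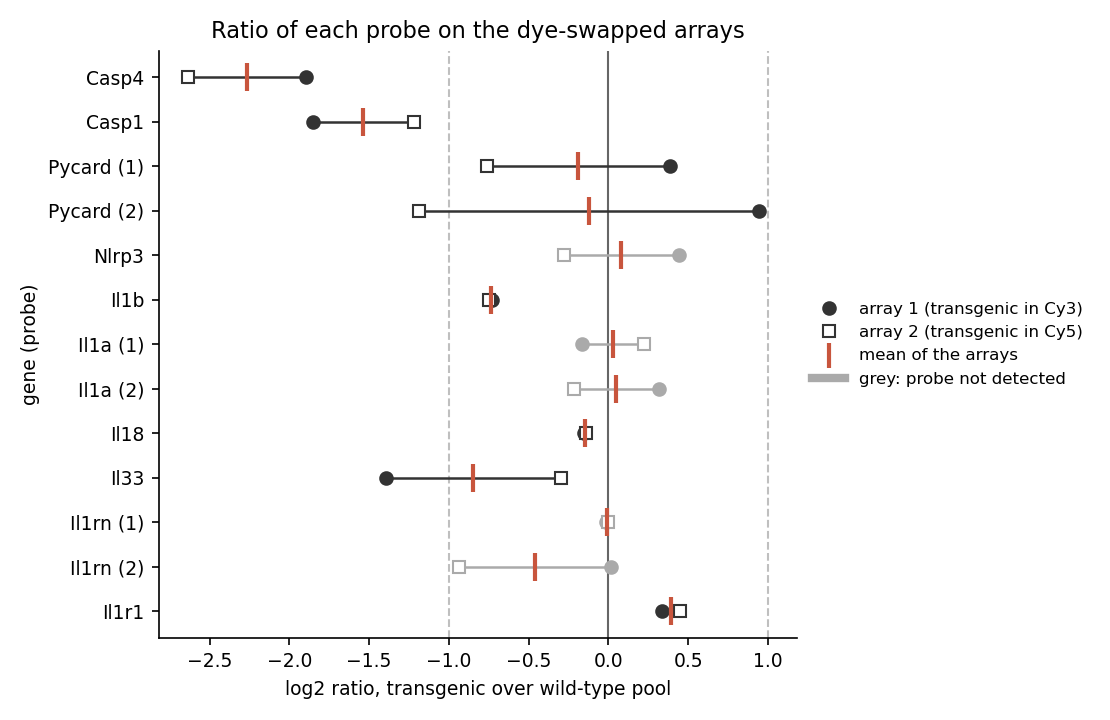
Log2 ratio of transgenic over wild-type pool (horizontal axis) for each probe on array 1 (filled circles) and array 2 (open squares), with the mean of the arrays as a red tick, undetected probes in grey and dashed lines at a 2-fold difference. Casp4 and Casp1 lie beyond the lower line on both arrays, Pycard lies on either side of 0, and Il1b, Il18 and Il1r1 gave nearly the same ratio on both arrays after loess.

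Among the ligands, Il1b was lower in the transgenic pool at a signal close to background. Its probe was printed as 10 spots on each array, and 8 on each remained after outlier spots were removed. The mean wild type signal was 6.83 and 7.33, and the mean transgenic signal was 6.11 and 6.58. On array 1 the lowest wild type spot, at 6.51, was above the highest transgenic spot, at 6.15, and on array 2 the corresponding values were 7.22 and 6.80. The ratio was below 0 in 8 of 8 spots on each array, from -1.03 to -0.36 on array 1 and from -1.07 to -0.46 on array 2. The array means of -0.73 and -0.75 gave -0.74 ± 0.02 (SD of the arrays, n = 2), which the rule did not call. Spots of 1 probe share a hybridisation and repeat the measurement of the same pools, not of mice.

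The size of the Il1b difference was not fixed by these data. The transgenic signal was well above background on neither array and in 0 of 8 spots on each, while 7 of 8 and 8 of 8 wild type spots were. Before correction the transgenic spots averaged 37.9 over a background of 25.3 in Cy3 and 124.5 over 115.6 in Cy5. The wild type spots averaged 159 over 117.5 in Cy5 and 187 over 27.0 in Cy3. The 1.67-fold difference measured with an offset of 50 is therefore an estimate under that setting and not a lower bound. Without background subtraction the mean was -0.64, a smaller difference. With an offset of 16 in place of 50 in the background correction, the mean was -1.16. With Feature Extraction's processed signals it was -3.87 on array 1 and -2.61 on array 2, a mean of -3.24 or 9.44-fold. With the offset of 16 and with Feature Extraction's signals Il1b passed the rule, which on Feature Extraction's ratios called 6.75% of all detected genes lower.

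Il18, whose precursor caspase-1 also cleaves, was nearly level between the pools under the processing used here. Its 10 spots per array averaged 7.43 and 7.44 in the wild type pool and 7.28 and 7.30 in the transgenic pool. Single spots ranged from -0.44 to 0.25 on array 1 and from -0.50 to 0.10 on array 2, with 8 of 10 and 7 of 10 below 0, so the spots of the pools overlapped. The mean log2 ratio was -0.15 ± 0.01 (SD of the arrays, n = 2), or 1.11-fold lower. It was -0.33 with Feature Extraction's signals and -0.39 in the deposited table. Before correction the transgenic spots on array 2 averaged 159.8 over a background of 111.25, and 6 of 10 were well above background. The size of the Il18 difference therefore also depended on the background correction. The SD over spots within an array was 0.23 and 0.19, which describes single spots and not the precision of their mean. Set beside Il1b, whose spot SD of 0.26 and 0.22 was similar, the spots of Il1b separated by pool and those of Il18 did not.

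**Figure D3:**
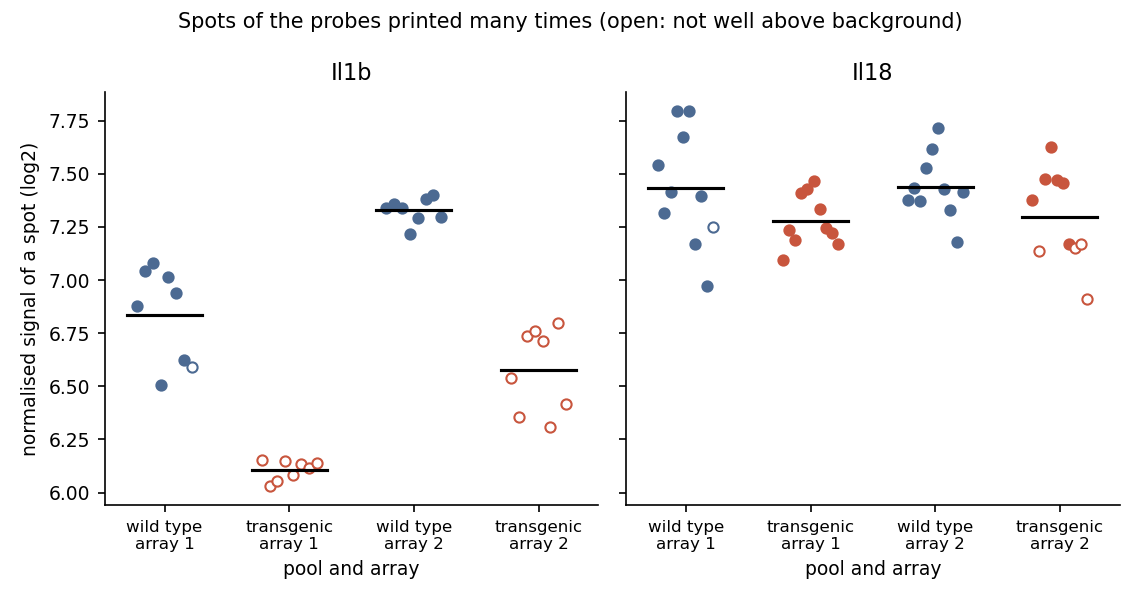
Normalised log2 signal (vertical axis) of every spot kept for the Il1b and Il18 probes, by pool and array, with open circles where a spot was not well above background and bars at the means. The Il1b spots of the pools do not overlap on either array and every transgenic spot is open, while the Il18 spots overlap.

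Il33, the alarmin, was lower in the transgenic pool on both arrays but by unlike amounts. Its wild type signal was 9.96 and 9.43 and its transgenic signal 8.57 and 9.13. All 4 signals were well above background and the pools did not overlap. The log2 ratios of Il33 were -1.39 and -0.30, with a mean of -0.85 ± 0.77 (SD of the arrays, n = 2), or 1.80-fold lower, which the rule did not call. The fibroblast markers given above had a median of -0.70. Their summed wild type and transgenic signals were 14997.2 and 14368.8 on array 1, and 35096.2 and 8839.7 on array 2. Dcn, by far the brightest of them, weighed most in these sums and stood at 0.13 on array 1 and -2.27 on array 2. Lum (-1.18 and -1.04) and Col3a1 (-1.07 and -1.14) were close between arrays. Col1a1 (-0.38 and -0.92) and Col1a2 (-0.25 and -1.27) were lower on array 2. The sums therefore do not give the array pattern of the list. Medians were 0.34 for epithelial, -0.21 for endothelial and -0.30 for smooth muscle markers. The part of any of these cells was not tested. Which array gave the larger difference for Il33 depended on the dye correction. With median centring in place of the intensity-dependent loess curve, array 1 gave -0.41 and array 2 gave -1.19, with a mean of -0.80.

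Il1a, the membrane-associated ligand of the same receptor as Il1b, had 2 probes, and neither was detected. Their wild type signals lay between 5.94 and 6.40 and their transgenic signals between 6.12 and 6.44, and the mean log2 ratios were 0.03 and 0.05. Only the wild type pool on array 2, there in Cy3, was well above background, and only by 1 of the probes.

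On the receptor side, Il1r1 was slightly higher in the transgenic pool. Its wild type signal was 9.08 and 9.06 and its transgenic signal 9.42 and 9.50, all well above background and without overlap. The log2 ratios were 0.34 and 0.45, with a mean of 0.39 ± 0.08 (SD of the arrays, n = 2), or 1.31-fold higher, which is short of the rule. It was the only detected member above 0 on both arrays. The closeness of its arrays depended on the loess curve, since with median centring they gave 1.31 and -0.44, with a mean of 0.43. Il1rn, the natural antagonist at this receptor, was not detected by either of its 2 probes. One of them gave ratios of -0.02 and -0.0029, and the other gave 0.02 on array 1 and -0.93 on array 2, where the wild type pool in Cy3 was well above background.

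The median over the 7 detected members was -0.74, the value of Il1b, and over all detected genes it was 0.01. The member median depended on the filter. It was -0.52 over the 6 members detected in both pools, which leave out Il1b, and -0.32 over all 10 with no filter. On both arrays 5 of the 7 detected members were below 0 and 1 was above. The same share was not counted over all detected genes, so nothing is read from this count.

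Other genes of the pathway, in 6 lists, were called lower or not called, and most of the calls came from the IL-1 inducible list. Of 99 listed genes on the array 62 were detected, and 12 were called lower and 0 higher, with a median of -0.28. Of all detected genes 3.53% were lower and 1.09% higher, so calls leaned to lower over the whole array too. IL-1 inducible genes held 8 of the 12 calls. The lists were chosen with earlier results known, so nothing is read from these counts. Of the sensors of inflammasomes and related receptors, 6 of the 16 on the array were detected, beside 13899 of 31993 genes over the whole array. Among them Ifi204, an interferon-inducible DNA-binding protein, was called at -1.15 ± 0.01, but 2 other detected probes of it gave -0.78 and -0.34, and members of that family resemble each other in sequence. Naip5, which recognises flagellin, stood at -0.07 ± 0.20. Aim2, Nlrc4, Nlrp6 and Mefv were not detected.

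Of 13 detected partners and executioners, 0 were called, with a median of -0.20. Gsdmd, the pore-forming substrate of both inflammatory caspases, stood at -0.49 ± 0.09 and Gsdmc, of the same family, at 0.007 ± 0.261. Nek7, a kinase that binds NLRP3, was at -0.34 ± 0.04, and the ATP-gated channel P2rx7 at -0.37 ± 0.22. Gsdmd, Nek7 and P2rx7 were chosen as examples after their values were seen.

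Receptors and decoys other than Il1r1 were detected for 4 of 10 genes. Il18r1, the ligand-binding chain of the IL-18 receptor, was called lower at -1.13 ± 0.35, with a transgenic signal well above background on 1 array. On array 2 alone, at -0.88, it did not reach a 2-fold difference. Il18bp, the soluble decoy for IL-18, stood at -0.54 ± 0.24, the shared signalling chain Il1rap at -0.20 ± 0.22 and the inhibitory receptor Sigirr at -0.03 ± 0.04. Il18bp and Il1rap were chosen after their values were seen. None of the 4 other IL-1 family ligands on the array (Il1f5, Il1f6, Il1f9 and Il1f10) was detected.

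In the signalling list, 2 of 24 detected genes were called lower and the median was -0.09. Tnfaip3, the deubiquitinase A20 that restrains NF-kB and is itself induced by it, stood at -1.36 ± 0.18, and the NF-kB subunit Relb at -1.24 ± 0.43, with -0.94 on array 2 alone. Of the receptor-proximal genes, Myd88 stood at -0.06 ± 0.24, Irak1 at -0.07 ± 0.26, Traf6 at 0.24 ± 0.30 and Tab1 at -0.0036 ± 0.3683. Tollip gave 1.18 on array 1 and -0.57 on array 2. Irak2 (-0.28 ± 0.37) and Irak3 (-0.15 ± 0.01) had a transgenic signal well above background on 1 array only. Feature Extraction's signals gave -0.75 for Irak2 and -1.25 for Irak3, which was called lower there. Among genes of the I-kappa-B family, Nfkbia stood at 0.31 ± 0.02, Nfkbie at -0.71 ± 0.43 and Nfkbiz at -0.77 ± 0.23. The signalling genes named here, apart from Tnfaip3, Relb and Tab1, were chosen after their values were seen.

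Among the 6 pathway lists, the genes that IL-1 is known to induce had the lowest median. Of 15 detected, 8 were called lower and 0 higher, with a median of -1.17, where 3.53% of all detected genes were lower. The 6 with the largest differences were the serum amyloids Saa3 (-4.14 ± 0.66), Saa1 (-3.003 ± 0.427, with -2.22 by its other detected probe) and Saa2 (-2.08 ± 0.53), the siderophore-binding Lcn2 (-3.53 ± 0.39) and the chemokines Ccl20 (-2.50 ± 0.01) and Cxcl1 (-1.88 ± 0.42). Mmp9, a matrix protease, was nearest 0 at -0.46 ± 0.17. Ptges, a prostaglandin E synthase chosen after its value was seen, was the only one above 0, at 1.29 on array 1 and 0.19 on array 2, with a mean of 0.74 ± 0.77. For Ccl20 and Cxcl1 the transgenic signal was well above background on 1 array. Over the 4 leukocyte marker lists together, 22 of 32 detected markers were lower as well, with a median of -1.51, and their part in these values was not tested. Other stimuli induce these genes too, and Il6, Ptgs2, Nos2 and Csf3 were not detected.

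**Figure D4:**
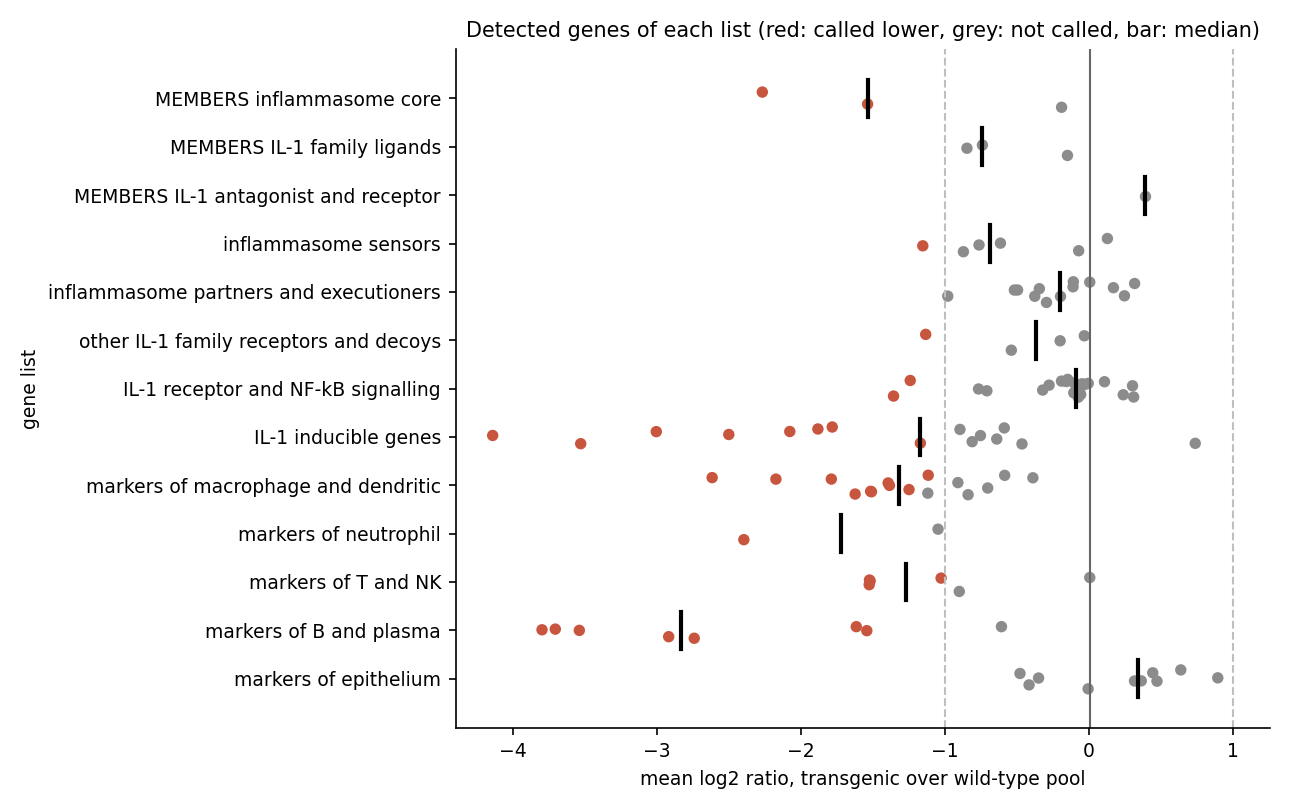
Mean log2 ratio of transgenic over wild-type pool (horizontal axis) for each detected gene by list, with genes called lower in red, genes not called in grey, list medians as black bars, dashed lines at a 2-fold difference and a solid line at the median of all detected genes. The lowest medians are those of the leukocyte marker lists (from -1.27 to -2.83), the 3 detected inflammasome core members (-1.54) and the IL-1 inducible list (-1.17). The signalling list has a median of -0.09 and the epithelial markers of 0.34.

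Of 43379 spots per array that were not controls, the transgenic pool had 29736 well above background on array 1 and 17185 on array 2, and the wild type pool 18606 and 30718. On each array the pool in Cy3 had more. The labelled tissue was ventral prostate, and its genes Pbsn, Sbp, Spink1 and Hoxb13 were detected in both pools, though Spink1 was 58.8-fold lower and Sbp 2.55-fold lower in the transgenic pool. The 4 genes Svs2, Svs4, Svs5 and Pate4 of seminal vesicle were not detected. Defb50 and Tgm4, products of other lobes, were detected, and Tgm4 was 4.36-fold higher in the transgenic pool. The growth text of the labels names dorsolateral as well as ventral prostates.

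The direction of each detected member's value, apart from that of Pycard, held under the processing alternatives that measured them. Casp4 ranged from -1.90 to -2.87 and Casp1 from -1.22 to -2.18 over 10 alternatives, and both kept the call in each. The lower ends, -2.87 and -2.18, are means in the authors' deposited table, which does not list Il1b. With median centring single arrays lay far apart, at -1.06 and -3.50 for Casp4, at 0.27 and -0.57 for Il18 and at 1.31 and -0.44 for Il1r1. Il33 passed a 2-fold limit on array 1 alone. Pycard was above 0 on array 1 alone, at 0.39, and below 0 in the others.

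**Figure D5:**
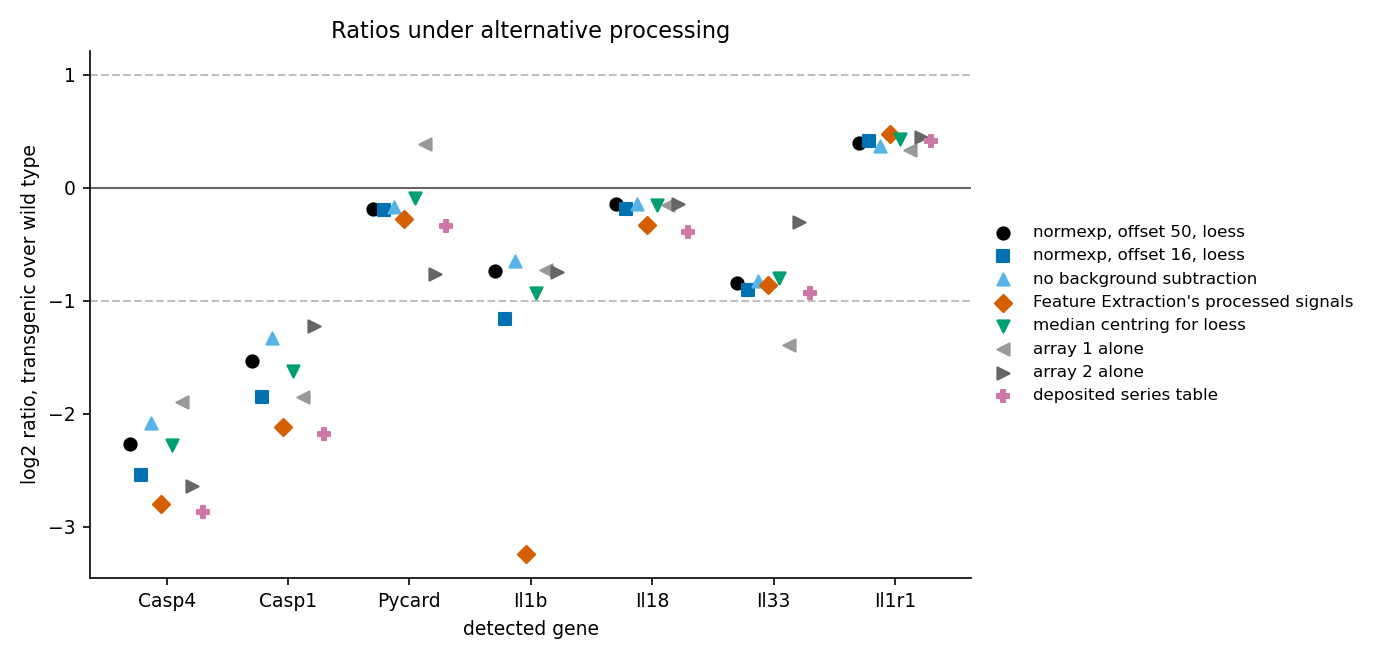
Log2 ratio of transgenic over wild-type pool (vertical axis) for the 7 detected members under the processing used here and 7 alternatives, with dashed lines at a 2-fold difference. Casp4 and Casp1 stay below the lower line throughout, Il1b ranges from -0.64 to -3.24, and Il18 and Il1r1 keep to a narrow range.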

How the data were processed

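Per the file headers, the scans were quantified by Feature Extraction (Agilent, 11.0.1.1) on an array annotated on mm9. The deposited files give, for each dye, the median intensity of a spot and of its surroundings, processed intensity (background-subtracted and dye-normalized, per the file headers) and a log10 ratio of red over green. The authors' deposited table of the whole series holds log2 ratios, whose scale and direction were settled against the processed signals.

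Here median signals were corrected with normexp (offset 50) and loess within each array (limma 3.58.1, R 4.3.3), with control and outlier spots at weight 0. The labelled dyes set the direction of every ratio (transgenic over wild type), spots of a probe averaged and arrays averaged. Signals per pool followed Aquantile scaling. A probe with several spots counted as well above background where more than 50% of its spots did, and no member spot was saturated (0 spots). A gene took its detected probe of highest mean intensity. Accessions were matched to RefSeq symbols of GRCm38.p6 (27816 of 41174 probes), for names alone. The procedure was tested on simulated data. With 1 pool per genotype no test was possible. The members and lists were chosen with earlier results of these data known. Of each pathway list, called genes were named up to 6 by size, and the gene nearest 0 could be an example. Of marker lists up to 2 called genes could be named by size, and other markers were named after their values were seen. There were 11 alternatives.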

Additional observations from a re-analysis of the deposited data

How the results depend on the processing

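Casp4 and Casp1 kept their direction and call under each of the 11 alternatives. Il1b gained the call with offset 16, with Feature Extraction's signals and at a 1.5-fold limit on the mean, which also took in Il33 and called 4 members and 23 pathway genes lower and 1 higher, beside 1077 and 472 of all genes. With Feature Extraction's signals 938 genes were lower and 309 higher, and 24 pathway genes were lower in place of 12. With median centring 99 genes were higher in place of 151, and with detection in both pools 267 were lower in place of 491. On single arrays 271 to 450 genes, and 0 to 2 pathway genes, were higher. Of the 12 pathway calls, Ifi204 was lost with median centring, with the mean of its probes and without background subtraction, Il18r1 without background subtraction and on array 2 alone, Relb on array 2 alone, and Vcam1 with median centring and on array 1 alone. Ccl20, Cxcl1, Il18r1 and Vcam1 were not measured where both pools had to be detected. Signal over background limits Il1b, Nlrp3, Il1a and Il1rn, and on array 2 the transgenic signal of Il18. 2 arrays of the same pools limit the precision of every value.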
